A study of Mus musculus with 21 samples.

Results

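The neurotrophin and GDNF pathway genes Bdnf, Ntf3, Ntrk2, Ntrk3, Ngfr, Gfra1, Gfra2 and Ret were followed in the subcommissural organ (SCO) and the hippocampus of newborn mice. They were taken by gene symbol from a table of 31883 genes, all 8 were found there, and all 8 passed the filter on low values. The SCO is a gland of secretory ependymal cells that lies dorsally, where the third ventricle meets the aqueduct. The groups were 4 SCO libraries and 5 hippocampus libraries from C57BL/6 mice on postnatal day 0 (P0), each a bulk RNA sequencing sample of dissected tissue, and the labels give neither group a treatment or an altered allele. A further 12 samples, taken on day 60, were not analysed here.

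Values are read counts per gene divided by a size factor for the library, called normalized counts here. Libraries held 35379988 to 151009954 reads. Whether the samples are of separate animals is not said in the labels, and the p-values therefore reflect only how these samples vary, which may be technical. Of 7 genes that mark the SCO, 4 rose. The summed share of the 7 was 0.0752% to 0.123% of reads in SCO libraries, against 0.0227% to 0.0431% in hippocampus libraries. Clu, which did not pass, had the highest mean of the 7 in each tissue (31857 and 16445 normalized counts). For the 4 that rose, means in SCO and hippocampus were 4312 and 1.56 (Sspo), 10253 and 64.3 (Spdef), 3258 and 174 (Car3), and 6200 and 966 (Pax6). Of 9 markers of hippocampal and cortical neurons, 8 fell, with 0.0119% to 0.0188% of reads in SCO libraries, against 0.187% to 0.285% in hippocampus libraries.

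Neurotrophins are secreted growth factors that are made as precursors and act as dimers. Brain-derived neurotrophic factor, encoded by Bdnf, binds the receptor tyrosine kinase TrkB, encoded by Ntrk2. Neurotrophin-3, encoded by Ntf3, binds mainly TrkC, encoded by Ntrk3. All neurotrophins also bind the p75 receptor encoded by Ngfr, which has no kinase and can signal for survival or for death. Ligands of the GDNF family bind a lipid-anchored GFRα co-receptor, and the complex activates the receptor tyrosine kinase RET. GFRα1, encoded by Gfra1, prefers GDNF, and GFRα2, encoded by Gfra2, prefers neurturin. In the hippocampus, BDNF and TrkB are known for their part in the growth and plasticity of synapses.

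The gene that rose among the 8 was Ntrk2, and its upstream sequence is shown for that reason. It is the stretch of 250 bases before the RefSeq start of Ntrk2 on the plus strand of GRCm38.p6, chr13:58806319-58806568, with CG dinucleotides in capitals.
Ntrk2: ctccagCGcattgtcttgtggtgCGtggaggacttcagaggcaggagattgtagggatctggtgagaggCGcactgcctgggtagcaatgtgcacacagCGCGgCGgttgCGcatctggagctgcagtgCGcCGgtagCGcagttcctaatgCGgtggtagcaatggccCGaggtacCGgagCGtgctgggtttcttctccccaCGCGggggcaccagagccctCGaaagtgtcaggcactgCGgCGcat
The stretch held 19 CG dinucleotides and 62.8% G and C. Among 32851 mouse windows of the same length before a RefSeq start, the median was 6 CG, and 19.7% held at least 19. Searched on both strands, the window held the E-box letters CANNTG 1 time, as did 66.2% of all windows at least once. The half-site letters TGACG, held by 17.8% of all windows, were not in this one. The GC box GGGCGG, held by 32.7%, and the TATA letters TATAAA, held by 12.4%, were not in it either. Of the other members, Bdnf has 7 starts in the RefSeq table and Ntf3 has 2, and the counts per gene do not tell them apart.

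Ntrk2 was higher in SCO. It had 10481, 10974, 16482 and 13796 normalized counts in SCO replicates 1 to 4, against 3967, 3353, 5591, 4815 and 5213 in hippocampus replicates 1 to 5. Every SCO library lay above every hippocampus library. The mean was 12933 ± 2780.3 in SCO (SD, n = 4) and 4588 ± 916 in hippocampus (SD, n = 5), a ratio of 2.82. The log2 fold change, SCO minus hippocampus on the log2(normalized count + 1) scale, was 1.50 (SE 0.23, 95% confidence interval 0.98 to 2.01, limma adjusted p = 0.00687). In bulk samples, a larger share of cells that use a gene and more RNA of it per cell cannot be told apart.

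Ntrk3 showed the opposite pattern and fell in SCO. It had 354, 1397, 1404 and 2366 normalized counts in SCO replicates 1 to 4, against 8981, 6077, 6949, 6012 and 9566 in hippocampus replicates 1 to 5. The tissues did not overlap, and within SCO replicate 1 stood lowest and replicate 4 highest. The mean was 1380.3 ± 822 in SCO (SD, n = 4) and 7517 ± 1658 in hippocampus (SD, n = 5), 5.45 times as high in hippocampus. Its log2 difference between the tissues was -2.70 (SE 0.48, 95% confidence interval -3.77 to -1.63, limma adjusted p = 0.0146).

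Of the 8 genes, these 2 passed an adjusted p of 0.05, 1 in each direction. Among all 28150 genes tested, 3.05% passed, 1.71% higher and 1.34% lower in SCO. The median log2 fold change of the 8 genes was -0.75, against -0.04 over all genes tested. Both Trk calls held with each of the 9 libraries left out in turn, with limma adjusted p at most 0.0238 for Ntrk2 and at most 0.0427 for Ntrk3. Neither held with the replicate number entered as a block (limma adjusted p = 0.0828 for Ntrk2 and 0.192 for Ntrk3). Without SCO replicate 4 and hippocampus replicate 2 together, the libraries with the largest choroid plexus marker shares of their tissue, the log2 fold change was 1.35 for Ntrk2 (limma adjusted p = 0.0181) and -3.13 for Ntrk3 (limma adjusted p = 0.0180). In the authors' deposited table the log2 fold changes were 1.50 for Ntrk2 (adjusted p = 9.83e-09) and -2.45 for Ntrk3 (adjusted p = 7.03e-06). At the same threshold that table calls 12.7% of its 21475 genes with an adjusted p. On the recovered reads, edgeR called 1.79% of the 28150 genes, with Ntrk2 and Ntrk3 among the members. DESeq2 called 12.8% of the 21144 genes to which it gave an adjusted p, with Gfra1 as well.

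**Figure D1:**
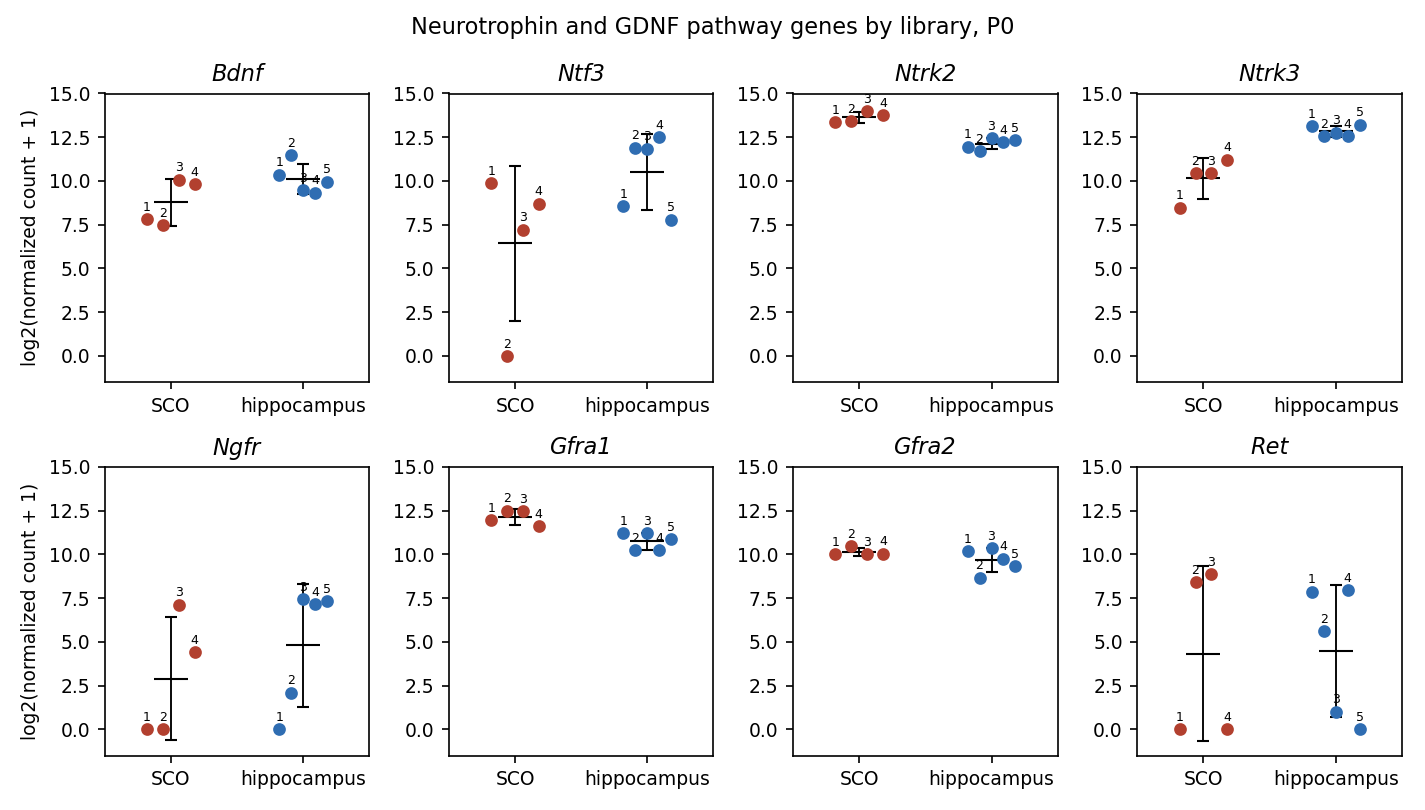
Each point is 1 library, numbered by replicate, on the log2(normalized count + 1) scale, with SCO left of hippocampus; the bars are the mean and SD of the log2 values (n = 4 and n = 5). The tissues do not overlap for Ntrk2, Ntrk3 and Gfra1, while Ntf3, Ngfr and Ret spread from 0 or near 0 to high values within a tissue.

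Since the levels of a pair of genes in 1 library share its depth, the ratio of Ntrk2 to Ntrk3 per length was also formed in each library. Levels per length are TPM, normalized counts per length scaled to the same sum in every library, with the union of annotated exons as the length. The ratio was 46.4, 12.3, 18.4 and 9.12 in SCO replicates 1 to 4, and 0.691, 0.863, 1.26, 1.25 and 0.852 in hippocampus replicates 1 to 5. With this length, hippocampus libraries held the 2 receptor genes at nearly equal TPM, and SCO libraries held 9.12 to 46.4 times as much Ntrk2 as Ntrk3. Another choice of length multiplies the ratio by the same factor in every library. With the longest transcript as the length, the hippocampus means were 17.9 TPM for Ntrk2 and 13 TPM for Ntrk3. The annotation lists 10 transcripts for Ntrk2 and 20 for Ntrk3. Both genes are known to give truncated receptors without a kinase, and counts per gene do not separate these from the full-length forms.

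**Figure D2:**
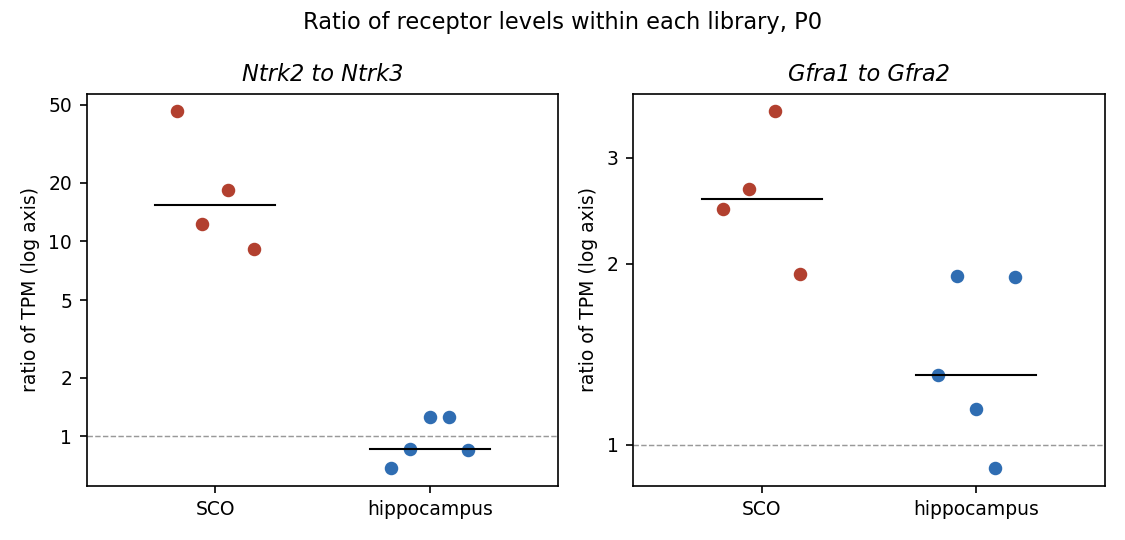
Points are the ratio of TPM of 2 receptor genes within each library on a log axis, SCO left of hippocampus, with the median as a black line and equality as a dashed line. The Ntrk2 to Ntrk3 ratio runs from 9.12 to 46.4 in SCO and from 0.691 to 1.26 in hippocampus, and the Gfra1 to Gfra2 ratio from 1.93 to 3.58 in SCO and from 0.915 to 1.91 in hippocampus.

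The ligand genes Bdnf and Ntf3 did not pass the test. Bdnf had 222, 176, 1081 and 903 normalized counts in SCO replicates 1 to 4, against 1321, 2810, 715, 644 and 994 in hippocampus replicates 1 to 5. SCO replicates 1 and 2 lay below every hippocampus library, and replicates 3 and 4 lay within the hippocampus range. For Bdnf the estimate was a log2 fold change of -1.33 (SE 0.67, 95% confidence interval -2.82 to 0.16, limma adjusted p = 0.384). The interval holds both no difference and a several-fold lower level in SCO. The antisense gene Gm45346 shares 896 exonic bases with Bdnf and had a mean of 70.0 normalized counts over all libraries. Without a known strand setting, reads of the shared bases cannot be assigned to either gene.

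Ntf3 had 935, 0, 148 and 418 normalized counts in SCO replicates 1 to 4, against 379, 3808, 3696, 5804 and 220 in hippocampus replicates 1 to 5. Hippocampus replicates 2, 3 and 4 lay above every SCO library, and hippocampus replicates 1 and 5 lay inside the SCO range. In reads, hippocampus replicate 4 held 15874 and replicate 5 held 578, at depths of 151009954 and 143312271 reads. SCO replicate 2 held 0 reads of 36243591, which allows up to 4.43 normalized counts, a bound of 3 reads that covers counting error only. The Ntf3 estimate was a log2 fold change of -4.07 (SE 1.87, 95% confidence interval -8.20 to 0.06, limma adjusted p = 0.329), and -1.92 without SCO replicate 2 (limma adjusted p = 0.537). With the other libraries left out in turn, it ran down to -5.21.

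Ngfr was low and present in some libraries of each tissue. It had 0, 0, 140 and 20.1 normalized counts in SCO replicates 1 to 4, against 0, 3.30, 174, 142 and 161 in hippocampus replicates 1 to 5. The high libraries were SCO replicate 3 and hippocampus replicates 3, 4 and 5, and the libraries at 0 came from both tissues. On the log2 scale the difference was -1.93 (SE 2.11, 95% confidence interval -6.59 to 2.74, limma adjusted p = 0.663), an interval that leaves the direction undetermined.

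Among the GDNF receptors, Gfra1 stood higher in every SCO library but just missed the threshold. It had 3960, 5799, 5757 and 3158 normalized counts in SCO replicates 1 to 4, against 2376, 1205, 2353, 1223 and 1883 in hippocampus replicates 1 to 5. The tissues did not overlap, with 3158 as the lowest SCO value and 2376 as the highest hippocampus value. The mean was 4668 ± 1323 in SCO (SD, n = 4) and 1808 ± 577 in hippocampus (SD, n = 5), a ratio of 2.58. The estimate for Gfra1 was a log2 fold change of 1.38 (SE 0.33, 95% confidence interval 0.66 to 2.11, limma adjusted p = 0.0514).

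The Gfra1 call depended on the method. It passed with a pseudocount of 10 (limma adjusted p = 0.0455), with a filter at a mean of 10 (limma adjusted p = 0.0434) and in DESeq2 on the recovered reads (adjusted p = 0.000693). It did not pass in edgeR (adjusted p = 0.0682) or with any library left out (limma adjusted p 0.0526 to 0.137). In the authors' deposited table its log2 fold change was 1.37 (adjusted p = 0.000668). Of the 8 genes, 3 had no overlap between the tissues, Ntrk2, Ntrk3 and Gfra1, against 8.53% of all genes tested. The antisense gene Gm16277 shares 416 exonic bases with Gfra1 and had a mean of 245 normalized counts.

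Gfra2 did not pass the test. It had 1038, 1410, 1038 and 1060.0 normalized counts in SCO replicates 1 to 4, against 1175, 408, 1326, 864 and 640.5 in hippocampus replicates 1 to 5. All SCO libraries lay above hippocampus replicates 2, 4 and 5. Its log2 fold change was 0.47 (SE 0.41, 95% confidence interval -0.43 to 1.38, limma adjusted p = 0.611), so that a rise of up to 1.38 on the log2 scale lies within the interval. The ratio of Gfra1 to Gfra2 per length was 2.46, 2.66, 3.58 and 1.93 in SCO replicates 1 to 4, and 1.31, 1.91, 1.15, 0.915 and 1.90 in hippocampus replicates 1 to 5.

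Ret, the signalling partner of both co-receptors, was at 0 or near 0 in some libraries of each tissue. It had 0, 341, 468 and 0 normalized counts in SCO replicates 1 to 4, against 232, 47.9, 1.03, 246 and 0 in hippocampus replicates 1 to 5. SCO replicates 2 and 3, which held Ret, had Gfra1 at 5799 and 5757. SCO replicates 1 and 4, at 0 for Ret, had Gfra1 at 3960 and 3158. In hippocampus replicates 1 to 5, Gfra1 was at 2376, 1205, 2353, 1223 and 1883, an order that Ret did not follow. Of Ret reads, hippocampus replicate 4 held 674 and hippocampus replicate 5 held 0, which at its depth allows up to 1.14 normalized counts. Ret had a log2 fold change of -0.17 (SE 2.52, 95% confidence interval -5.75 to 5.41, limma adjusted p = 0.980), and its sign changed with single libraries left out.

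The spread within a tissue differed widely among the 8 genes. The SD of log2 values around the tissue means was 0.30 for Ntrk2, 0.46 for Gfra1, 0.54 for Gfra2 and 0.80 for Ntrk3. It was 1.09 for Bdnf, 3.34 for Ntf3, 3.51 for Ngfr and 4.34 for Ret, against a median of 1.20 over all genes tested. The SD of Ntrk2 was larger than that of 3.33% of genes tested, and that of Ret larger than that of 99.3%. For Ntf3, Ngfr and Ret, the tissues overlapped and the difference did not pass the test.

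The other ligands were low. Gdnf was found in SCO replicate 1 at 106, and in the other libraries only hippocampus replicate 5 held any, at 0.761. Artn, which encodes artemin, had 0 reads in all 4 SCO libraries, against 81.1, 307, 0, 0.366 and 107 in hippocampus replicates 1 to 5. Its limma adjusted p was 0.263, and it passed in DESeq2. For Ntf5, Nrtn, Pspn and Gdf15, the highest value in any library was 42.5, 24.8, 38.8 and 89.5 normalized counts. Of these 6 ligands, 0 passed limma-trend, 1 had an unadjusted p under 0.05, and edgeR called 0 and DESeq2 1. Over all genes tested, 15.5% had an unadjusted p under 0.05, which is the background for this count in each list.

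Among the other receptors, sortilin and its relatives bind precursors of neurotrophins. Sorcs3 had 1306, 1982, 868 and 2458 normalized counts in SCO replicates 1 to 4, against 0, 231, 516, 611 and 519 in hippocampus replicates 1 to 5. The tissues did not overlap, but the log2 fold change of 3.55 had an SE of 1.70 (limma adjusted p = 0.353). Sorcs1 had 503, 2557, 2299 and 2919 in SCO, against 600.5, 95.7, 706, 408 and 754 in hippocampus (a log2 difference of 2.04, SE 0.73, limma adjusted p = 0.192). Sort1, Sorcs2, Nradd, Gfra4 and Ncam1 had log2 fold changes between -0.43 and 0.49. Gfra3, the artemin co-receptor gene, had 182 in SCO replicate 4 and 0 reads in the other 8 libraries. Of the 8 further receptors tested, 0 passed limma-trend, 1 had an unadjusted p under 0.05, against 15.5% of all genes, and edgeR called 0 and DESeq2 1.

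**Figure D3:**
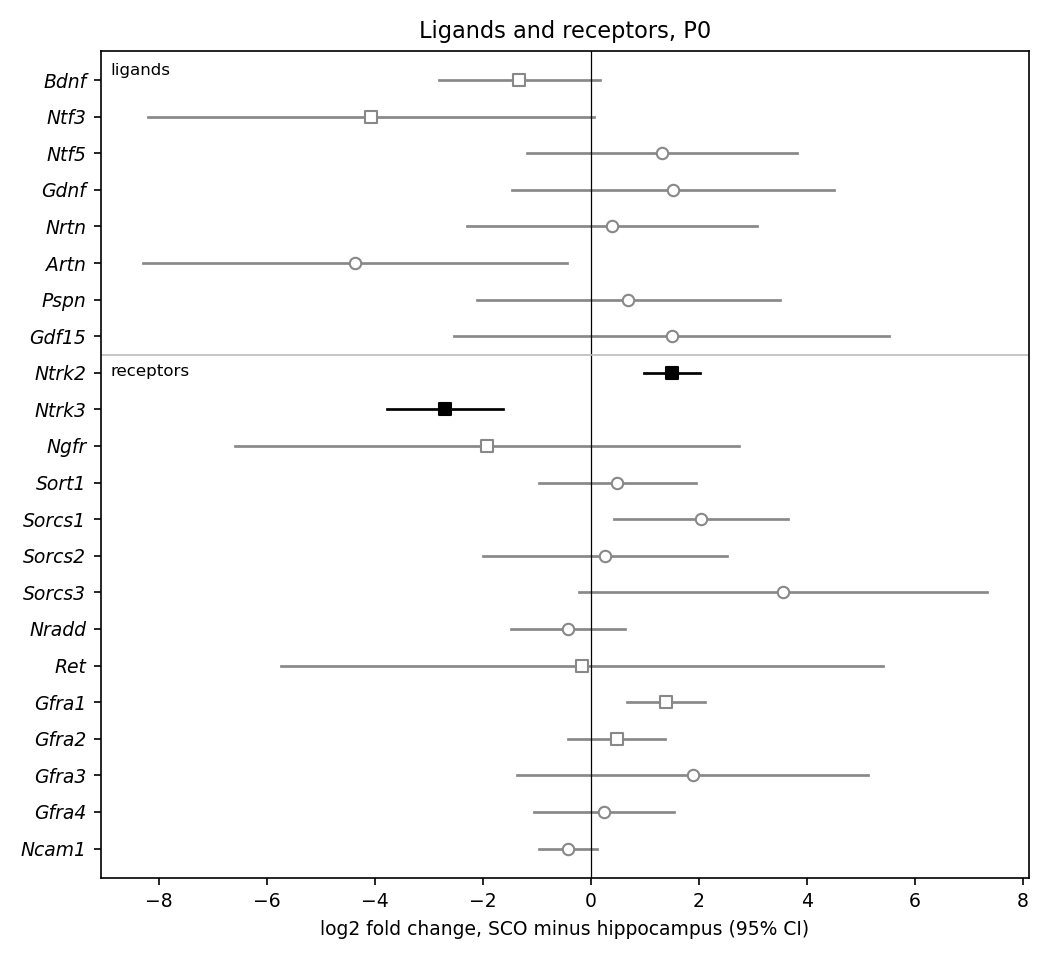
The log2 fold change, SCO minus hippocampus, with its 95% confidence interval from limma, for the ligands above and the receptors below; squares are the 8 genes described in full, circles the others, and filled black symbols passed the threshold. Ntrk2 at 1.50 and Ntrk3 at -2.70 are the filled symbols, and the intervals of Ntf3, Ngfr and Ret are several log2 units wide.

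The wider pathway was read from 75 further genes in 8 lists by role, of which 71 were tested. Plat rose and Shc3 fell, 2.82% of those tested, against 3.05% of all genes. The median log2 fold change was -0.34, against -0.04 over all genes tested. Plat encodes tissue plasminogen activator, a protease that can start the cleavage of the BDNF precursor by way of plasmin. It had 20542, 19885, 39487 and 26471 normalized counts in SCO replicates 1 to 4, against 9757, 2544, 7423, 9693 and 11651 in hippocampus replicates 1 to 5 (a log2 difference of 1.81, SE 0.43, limma adjusted p = 0.0499). All SCO libraries lay above all hippocampus libraries. With 1 library left out in turn, the Plat call held in 1 of 9 fits (limma adjusted p 0.0138 to 0.134), the one without hippocampus replicate 2, and edgeR did not call it.

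Shc3 encodes a neuronal adaptor that binds activated Trk receptors. It had 13.4, 5.91, 2.74 and 17.9 normalized counts in SCO replicates 1 to 4, against 57.4, 279, 422, 283 and 613 in hippocampus replicates 1 to 5. The tissues did not overlap, with a log2 difference of -4.83 (SE 0.96, limma adjusted p = 0.0239). With 1 library left out in turn, the call held in 4 of 9 fits (limma adjusted p 0.0196 to 0.0760) and ended without SCO replicate 2 or 3 and without hippocampus replicate 3, 4 or 5. Of its relatives, neither Shc1 (a log2 difference of 2.89, SE 1.09, limma adjusted p = 0.219) nor Shc2 (a log2 difference of -1.91, SE 1.75, limma adjusted p = 0.631) passed the test.

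Among 10 genes of proneurotrophin processing, Plat rose and the median log2 fold change was -0.30. Of the 11 genes of ERK feedback and its targets, 0 passed limma-trend, with a median log2 fold change of -0.74, 1 at an unadjusted p under 0.05, and 0 in edgeR and in DESeq2. These counts stand beside 15.5% of all genes at an unadjusted p under 0.05. Of 13 tested partners and effectors of the p75 receptor, 0 passed limma-trend, with a median of -0.00, 3 at an unadjusted p under 0.05, 0 in edgeR and 2 in DESeq2. These 2 were Rtn4r and Lingo1, which encode the Nogo receptor and its partner LINGO-1 (log2 fold changes -3.83 and -1.56, limma adjusted p = 0.0981 and 0.0910). Of 24 adaptors and effectors of Trk and RET, Shc3 fell and 18 had a log2 fold change below 0, against 51.4% of all genes tested, with a median of -0.49. In that list 6 had an unadjusted p under 0.05, and edgeR called 1 and DESeq2 3. Dok5, an adaptor of the RET and Trk receptors, had 1907, 2832, 1119 and 2349 in SCO, against 3397, 5368, 8802, 8178 and 3809 in hippocampus (a log2 difference of -1.50, SE 0.38, limma adjusted p = 0.0680).

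**Figure D4:**
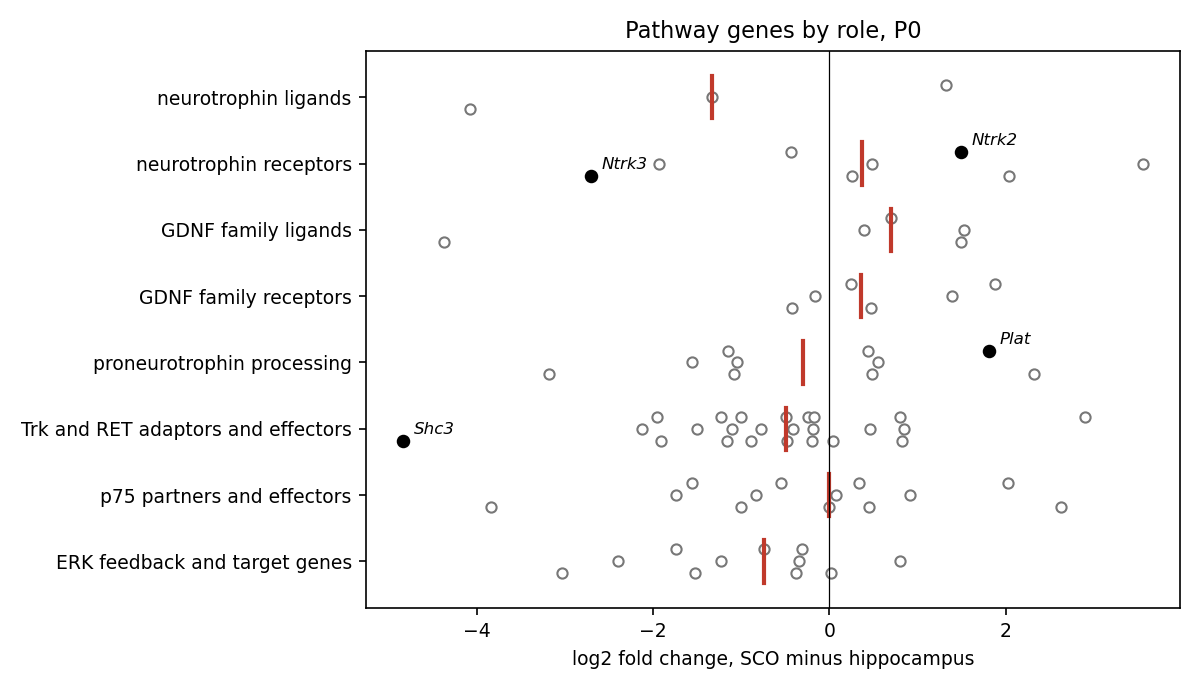
Each circle is 1 gene of a role list, members included, placed by its log2 fold change, SCO minus hippocampus; filled circles passed the threshold and are named, and the red line is the list's median. Left of 0 lie 18 of 24 adaptors and effectors and 9 of 11 genes of ERK feedback, against 51.4% of all genes tested. Shc3, Ntrk2, Ntrk3 and Plat are the filled circles.

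Levels were ordered between genes per length. In SCO, Gfra1 averaged 35.9 ± 10.3 TPM and Ntrk2 28.04 ± 5.00 TPM (SD, n = 4), and their libraries overlapped. Below them came Gfra2 at 13.6 TPM, Ntf3 at 9.23, Bdnf at 3.95, Ntrk3 at 1.91, Ret at 1.25 and Ngfr at 0.468. Of these neighbours, Ntrk2 and Gfra2 alone had libraries that did not overlap. In hippocampus, Ntf3 averaged 64.2 ± 58.3 TPM (SD, n = 5), with a range of 5.74 to 144 TPM. It was followed by Gfra1 at 14.0 TPM, Gfra2 at 10.7, Ntrk3 at 10.5, Ntrk2 at 10.01, Bdnf at 7.99, Ngfr at 1.22 and Ret at 0.668, and of these neighbours Bdnf and Ngfr alone did not overlap. With the longest transcript as the length, Ntrk2 became the highest in SCO at 50.1 TPM, since its exon union of 19292 bases is far longer than its longest transcript of 8744. In hippocampus the same length put Ntrk2 second at 17.9 TPM and Gfra2 sixth at 8.84 TPM, below Bdnf at 9.44 TPM.

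The genes whose pattern was most like each member were found by the root mean square difference of log2 values centred over the 9 libraries, among 14155 other genes. For Ntrk2 these were Maged2 (0.18) and Ndrg2 (0.21), both with higher means in SCO. For Ntrk3 they were Nectin3 (0.35) and Grik2 (0.36), both lower in SCO. For Gfra1 they were Synpr (0.22) and Gprc5b (0.24), for Gfra2 Strada (0.18) and Pcsk2 (0.20), and for Bdnf Nr6a1 (0.39) and Zswim5 (0.51). The nearest genes were further from Ret (Sbno2, 0.96), Ntf3 (Diaph3, 1.20) and Ngfr (Cdkl1, 1.32). The libraries share their depth and tissue, so the differences are descriptions.

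The shares of reads taken by markers of cell types were also compared between the tissues. Pan-neuronal markers, of which 1 of 6 fell (Snap25), took 0.194% to 0.338% of reads in SCO libraries and 0.411% to 0.470% in hippocampus libraries, the same direction as Ntrk3 and Shc3. Within SCO, that share was 0.216%, 0.194%, 0.276% and 0.338% in replicates 1 to 4. The 2 highest SCO replicates were also those with the most Bdnf. Hippocampus went the other way, where replicates 3 and 4 had the highest shares (0.470% and 0.450%) and the least Bdnf. Hippocampus replicate 2 had the lowest share of its tissue (0.411%) and the most Bdnf. Markers of habenular, thalamic and pretectal neurons, of which 4 of 8 rose, took 0.0673% to 0.125% in SCO and 0.00330% to 0.00584% in hippocampus, where Gbx2 was at 0 reads. Of 7 markers of radial glia and astrocytes, Vim rose and Slc1a2 fell, and their share was 0.271% to 0.498% in SCO and 0.254% to 0.301% in hippocampus. Choroid plexus markers took 0.324% of reads in SCO replicate 4 and 0.0156% to 0.0218% in the other SCO libraries, with Kl at 0 reads in SCO. In hippocampus libraries they took 0.000155% to 0.0230%. Of these markers Otx2 rose, and it held 5800, 5897, 8438 and 7222 reads in SCO replicates 1 to 4. Ttr held 375, 273, 118 and 153050 reads in the same libraries. Microglia markers took 0.0476% to 0.0601% in SCO and 0.0220% to 0.0355% in hippocampus, without overlap; of the 7, 0 passed limma-trend, 6 had an unadjusted p under 0.05, and edgeR called 0 and DESeq2 4. The 3 Schwann and neural crest markers in the table took 0.00239% to 0.00662% in SCO and 3.56e-05% to 0.00143% in hippocampus, also without overlap. Endothelial and mural markers took 0.0425% to 0.0630% in SCO and 0.0212% to 0.0437% in hippocampus. Of 8 interneuron markers 4 fell, and their share was 0.0149% to 0.108% in SCO and 0.0422% to 0.0719% in hippocampus. The part of these cell types in the values of the pathway genes was not tested.

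Positions are on the genome build GRCm38, from GENCODE M21, chromosome and strand first. Ntrk2 (ENSMUSG00000055254.15) is on chromosome 13, plus strand, at 58806569 to 59133970, and Ntrk3 (ENSMUSG00000059146.12) on chromosome 7, minus strand, at 78175959 to 78738012. Gfra1 (ENSMUSG00000025089.15) is on chromosome 19, minus strand, at 58235604 to 58455909, and Gfra2 (ENSMUSG00000022103.10) on chromosome 14, plus strand, at 70890120 to 70979838. Chromosome 6 holds Ret (ENSMUSG00000030110.13) at 118151745 to 118197718 and Ntf3 (ENSMUSG00000049107.13) at 126101412 to 126166910, both on the minus strand. Bdnf (ENSMUSG00000048482.14) is on chromosome 2, plus strand, at 109674700 to 109727007, and Ngfr (ENSMUSG00000000120.6) on chromosome 11, minus strand, at 95568818 to 95587735. Reads were summed over each gene, so exons, introns and untranslated regions are not resolved.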

How the data were processed

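Bulk RNA of 9 P0 libraries was read from 1 table of 31883 genes. FastQC, HISAT, HISAT2, featureCounts and DESeq2, and the build GRCm38, are named by the submitters' processing notes. Neither versions nor annotation nor strand setting is given in the sources used here. The authors deposited a normalized signal per library, in which each count was divided by the size factor of its library. Their deposited comparison, per the file headers, has a log2 fold change and its error, a test score, and a raw and an adjusted p-value. All values are whole multiples of 1 read (tolerance 1e-06, 100% of values whole), which gave the reads; the count test edgeR called 503 genes on them. Columns of samples of another series numbered 0.

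The test was limma-trend on log2(value + 1) for the 28150 genes whose mean reached 1 in the SCO or the hippocampus, with Benjamini-Hochberg adjustment over all of them and a call at adjusted p under 0.05. No covariate was used. The pseudocount damps the change of low genes on this scale, but where libraries are at 0 the difference of mean log2 values can exceed the log2 ratio of the means, as for Ntf3 and Ngfr. Alternatives were other pseudocounts, filters, scalings and tools, a block, and left-out libraries. TPM used the exon union of GENCODE M21, for the 31302 genes whose versioned identifiers matched. The members and lists were chosen with earlier results of these data known. The rule for named genes takes all members, each called pathway gene, each further ligand and receptor of the lists (some genes of the pathway are not reported here), and the 2 genes whose mean reaches 100 in a tissue, without predicted models, nearest to each member; Shc1, Shc2, Dok5, Rtn4r and Lingo1 were added after their values were seen. Upstream sequence came from a table of RefSeq starts, build GRCm38.p6, in which 5 of the 8 members matched. No 2 libraries of a tissue agreed within sampling noise (chi-square per degree of freedom 144.5 or more). Scripts were tested on simulated data. Software was R 4.3.3, limma 3.58.1, edgeR 4.0.16, DESeq2 1.42.0, Python 3.11.15 and matplotlib 3.10.9.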

Additional observations from a re-analysis of the deposited data

Results flagged for a closer look

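In groups whose highest library held at least 10 reads, the highest or lowest library was compared with the rest of its group by Dixon's test at the 95% level. Of 39 gene and tissue groups, 10 had a library far from the others, where chance gives about 1 in 20 groups of normally spread values. The values were normalized counts, not log2 values. In 5 of the 10, all other libraries of the group were at 0, so that rate is no comparison for them. Nor is it one for Ntf5 in SCO, with 0 to 1 read in the other libraries, or Gdf15 in hippocampus, with 0 to 6 reads. Ngfr in SCO had 0 reads in replicates 1 and 2. Among the 8 genes, Ngfr in SCO replicate 3 stood at 140 normalized counts, against at most 20.1 in the other SCO libraries. Gfra2 in SCO replicate 2 stood at 1410.2, against 1038 to 1060.0 in the others. Of the other receptors, Nradd in hippocampus replicate 4 stood at 772, against 427 to 497 in the other hippocampus libraries, and Gfra3 in SCO replicate 4 at 182, against 0. Of the ligands, SCO replicate 1 held Gdnf at 106 and Pspn at 38.8, both at 0 in the other SCO libraries, and SCO replicate 4 held Ntf5 at 42.5, against at most 1.49. In hippocampus, Nrtn stood at 24.8 in replicate 2 and Pspn at 8.04 in replicate 4, each at 0 in the other hippocampus libraries, and Gdf15 at 48.5 in replicate 3, against at most 2.19.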

How the results depend on the processing

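The number of all genes called was 503 in edgeR and 2708 in DESeq2, against 859, and 498 to 1077 with 1 library left out (498 without hippocampus replicate 3, 565 without hippocampus replicate 1, 564 without SCO replicate 3). Among the members, 2 to 2 were called with 1 library left out, Ntrk2 and Ntrk3 each time. Gfra1 passed with a pseudocount of 10 (1.38), a filter at a mean of 10 (1.38) and DESeq2 (1.37). Ret had a positive log2 fold change, uncalled, with a pseudocount of 10 (0.29), in edgeR (0.90), in DESeq2 (0.94) and without SCO replicate 4 and hippocampus replicate 2 (1.55), and -1.68 to 1.27 with 1 library left out. Of the pathway genes other than the members, 1 was called with a pseudocount of 0.5 or 10, without a filter, with robust moderation, with TMM factors and in edgeR. DESeq2 called 8, 4 were called without the pair of libraries, and 0 to 2 with 1 library left out (0 without SCO replicate 2 or 3 or hippocampus replicate 3, 4 or 5; 1 without SCO replicate 1 or hippocampus replicate 1). With the longest transcript as length, 10 of 16 ranks of the members by TPM stayed as with the exon union. The causes were not tested.

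Same-numbered libraries, by the replicate numbers used here, had correlations of -0.03 to 0.02 in their deviations. With their own number, 0 of 4 SCO libraries correlated best. These correlations cannot show whether libraries share an animal, and the bracketed numbers in the sample titles were not tried. With the replicate number as a block, 1 gene was called in all, 0 of the members and 0 of the other pathway genes. The log2 fold changes in that fit were 1.55 for Ntrk2 (limma adjusted p = 0.0828) and -2.61 for Ntrk3 (limma adjusted p = 0.192). That fit spends degrees of freedom on 5 numbers. Depth limits the lowest genes: 3 reads are 1.10 to 4.95 normalized counts per library.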
